A study of Arabidopsis thaliana with 6 samples.

Results

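KUP transporters and other potassium-permeable channels are among the proteins through which plant cells move potassium. They are candidate routes for cesium, whose ion resembles that of potassium. The set held 33 of the 33977 gene IDs in the count files and was chosen by locus. It comprised the 12 KUP transporters, 6 Shaker channels (AKT1, KC1 and SKOR left out), the sodium transporter HKT1 and 2 two-pore channels of the TPK family. It also held the antiporters KEA1, KEA2 and KEA3 and 5 NHX-type antiporters (SOS1 included). The cyclic nucleotide-gated channels CNGC1, CNGC19 and CNGC20 and the facilitator ZIFL2 completed it. All samples were whole plants of Arabidopsis thaliana, accession Col-0, harvested at an age of 10 days and kept at 22 °C with 16 h light and 8 h dark. The control group (3 libraries) was raised on half-strength MS, a mineral plant medium, and the CsCl group (3 libraries) on that medium containing 1.5 mM CsCl. Nothing in the labels says whether the 3 libraries of a group came from separate plates, so p-values speak only for the spread among these libraries, and that spread may be technical.

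KUP proteins (also named HAK or KT) are transporters with many membrane spans that carry potassium into cells or across internal membranes, and several act in cell expansion. Shaker and TPK proteins are potassium-selective channels, the former opened by voltage and the latter lying in internal membranes. CNGC channels are less selective cation channels, KEA and NHX proteins exchange potassium or sodium for protons across plastid, vacuolar and endosomal membranes, and SOS1 extrudes sodium at the plasma membrane. KUP9 has been shown to carry cesium in bacteria, CNGC1 has been put forward as a cesium route, and ZIFL2 has been tied to export of cesium and potassium from root cells.

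Coding sequences from RefSeq (TAIR10.1) were searched for a feature of potassium-selective channels. The selectivity filter of a potassium channel carries glycine, tyrosine and glycine in a row, and the order threonine, any residue, glycine, tyrosine, glycine, aspartate was searched for in the translation of each of the 33 genes. It occurred 1 time in each of the 6 Shaker translations, 2 times in each of the 2 TPK translations, and in none of the other 25, the CNGC channels included. The coding bases of the filter and of 4 codons on each side are printed for the best measured Shaker gene, a guard cell channel, the least abundant pair and TPK3, with the glycine-tyrosine-glycine codons in capitals.
AKT2: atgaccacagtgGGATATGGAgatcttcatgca
GORK: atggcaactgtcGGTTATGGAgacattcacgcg
AKT5: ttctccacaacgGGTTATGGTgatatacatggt
AKT6: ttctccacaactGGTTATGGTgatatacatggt
TPK3 pore 1: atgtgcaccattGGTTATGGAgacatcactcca
TPK3 pore 2: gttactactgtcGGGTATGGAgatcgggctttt

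The 12 KUP translations had no run of residues in common longer than 4, and none of the 21 other translations held that run; in 1 of the 12, KUP3, it occurred more than once. The 10 codons that end with it are printed for the KUP genes the results turn on, with the 13 of 30 bases that were the same in all 12 genes in capitals.
KUP5: TttGGtGAtaTtggaActagcCCatTgTAT
KUP12: TatGGtGAtaTgggaAcaagtCCttTgTAT
KUP9: TatGGaGAttTagggAcgtctCCatTgTAT
KUP8: TacGGaGAttTagcaActtcaCCatTgTAT

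Total counts ran from 32075069 to 44108369 per library, the deepest being CsCl replicate 3. Of the 33 genes, 32 passed the filter on low counts and AKT5 did not. Values are given as CPM, the usual depth-normalised count, on library sizes scaled by TMM, a factor that evens out composition, and levels between genes are given as CPM per kb of exon. Reads from near-identical genes cannot be told apart with certainty, and 4 of the 33 genes had a stretch of 100 transcript bases at 95% identity or more with another gene, in the pairs KEA1 with KEA2 and CNGC19 with CNGC20. These windows are printed because they bear on the counts of both pairs, with the differing bases in capitals. Each pair differed at 4 of 100 coding bases there.
KEA1: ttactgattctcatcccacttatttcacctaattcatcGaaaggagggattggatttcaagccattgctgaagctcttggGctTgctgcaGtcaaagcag
KEA2: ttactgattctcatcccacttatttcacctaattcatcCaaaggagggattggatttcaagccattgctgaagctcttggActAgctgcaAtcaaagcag
CNGC19: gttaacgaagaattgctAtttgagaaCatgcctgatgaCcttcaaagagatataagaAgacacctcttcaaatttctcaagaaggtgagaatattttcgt
CNGC20: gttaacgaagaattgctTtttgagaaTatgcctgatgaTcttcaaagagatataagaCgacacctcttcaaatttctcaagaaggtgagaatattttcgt

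The comparison asks whether transcripts of these transporters and channels differed between plants grown with and without CsCl. None of the 32 tested genes passed the test in either direction (quasi-likelihood test of edgeR, p adjusted by Benjamini-Hochberg over 21005 genes, threshold 0.05), against 2.16% of all tested genes, 0.843% higher and 1.32% lower. The same count was 0 with DESeq2 and 0 with limma-voom. At an unadjusted p under 0.05 there were 3 (KUP5 lower, KUP12 and AKT2 higher), or 9.38% against 14.4% of all tested genes (6.67% higher and 7.75% lower). In 8 of the 32, or 25.0%, the 3 CsCl libraries lay entirely above or entirely below the 3 control libraries, against 19.8% of all tested genes, so both counts lay near the background.

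The fold changes were small and closely bounded. Log2 fold changes (CsCl over control) ran from -0.23 for KUP5 to 0.32 for ZIFL2, with a median of -0.02 beside 0.01 over all tested genes. The 95% interval of the fold change lay within 1.5-fold in either direction for 29 of the 32 genes, or 90.6% against 75.6% of all tested genes. The median SE was 0.0702 against 0.0993, and the median level 33.4 CPM against 14.0 CPM, so these genes were also better counted than most. The 3 exceptions were ZIFL2, AKT6 and CNGC19, the 3 tested genes with a mean under 5 CPM. Of the 32 fold changes 21 were below 0 under TMM scaling, or 65.6% against 48.6% of all tested genes, and 14 when libraries were scaled by total counts alone, or 43.8% against 38.3%, which also moved the median of all genes from 0.01 to 0.04. In whole plants, fewer cells of a type and less RNA per cell cannot be told apart.

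**Figure D1:**
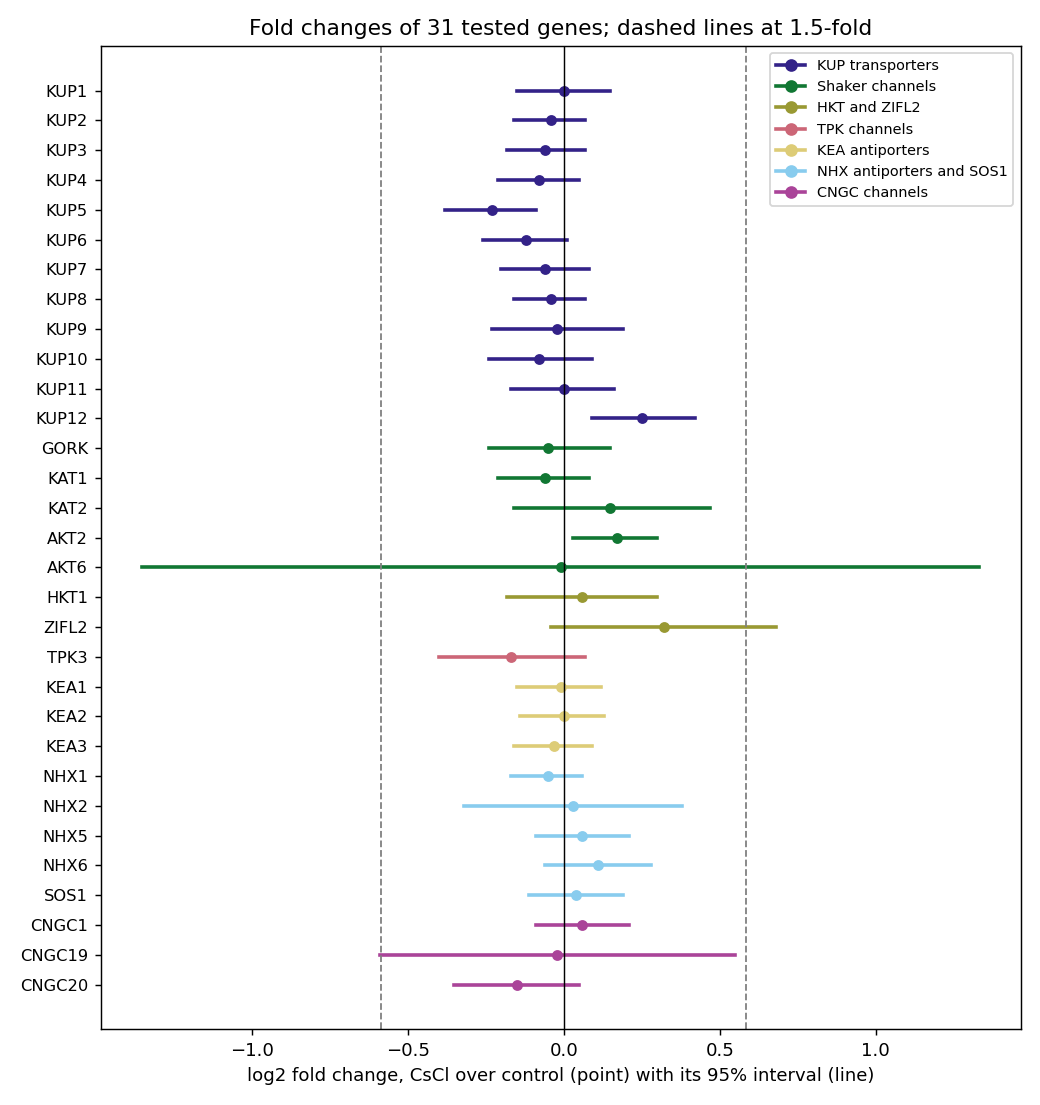
Log2 fold change of 31 of the 32 tested genes (horizontal axis, CsCl over control) with its 95% interval, coloured by protein group, and dashed lines at 1.5-fold. Every interval other than those of AKT6, ZIFL2 and CNGC19 ends inside the dashed lines, and only those of KUP5, KUP12 and AKT2 leave out 0.

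Levels spanned a 497-fold range between the most and the least abundant tested gene. KEA1, a potassium-proton antiporter of the inner chloroplast envelope, stood highest at 50.6 CPM per kb (range 46.3 to 53.3 over the 6 libraries). NHX1, which loads the vacuole, followed at 41.5 CPM per kb (40.4 to 42.9), and KEA3, the antiporter of the thylakoid membrane, at 34.0 CPM per kb (32.3 to 36.3). KUP8 was the highest KUP gene at 32.2 CPM per kb, a range that overlapped that of KEA3. Of 32 neighbouring pairs in this order, 22 had ranges that overlapped, so the order within the middle of the list is loose. With coding length in place of exon length, a choice made after seeing the data, NHX1 stood above KEA1, and KEA3 again followed them.

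**Figure D2:**
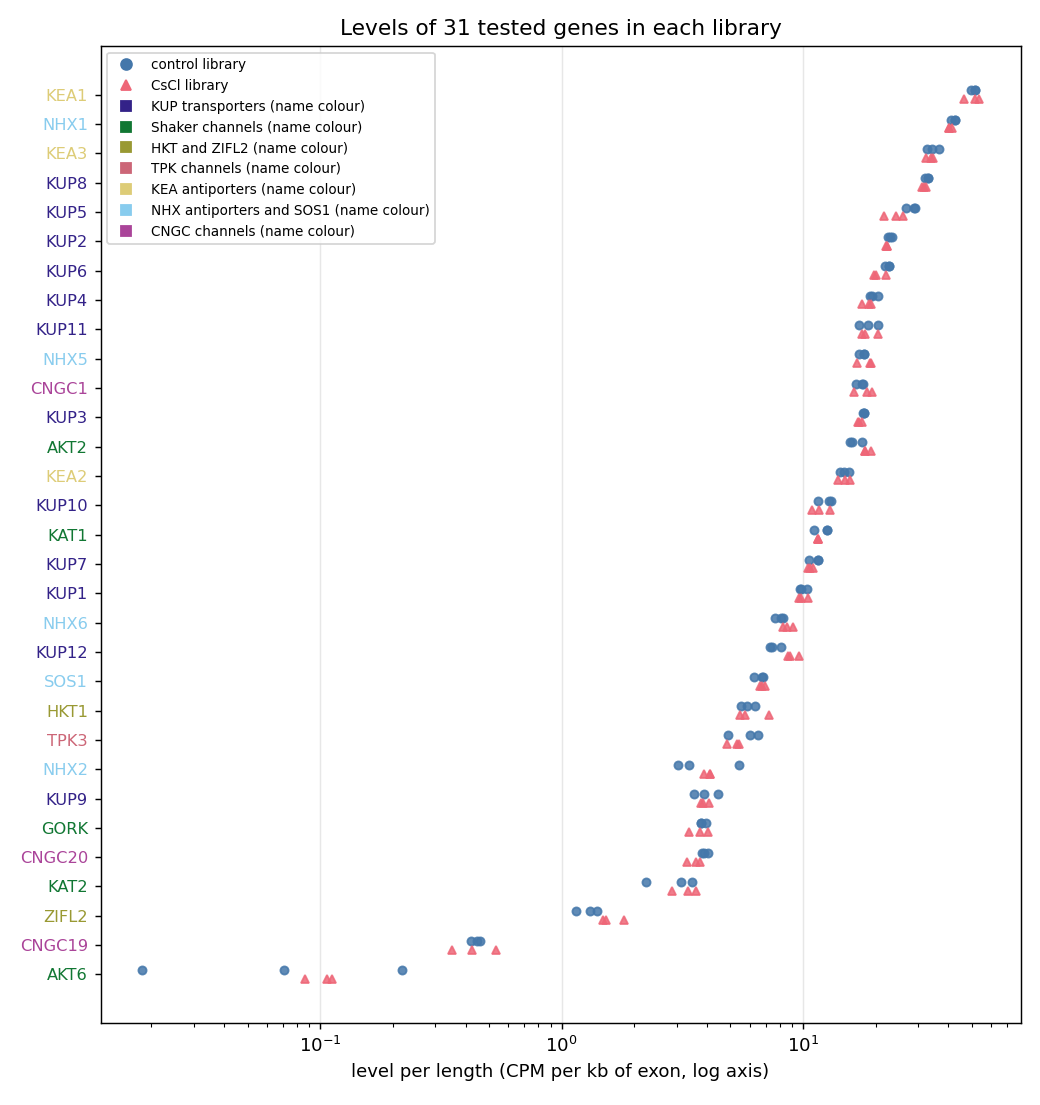
CPM per kb of exon on a log axis for 31 of the 32 tested genes, from the highest (top) to the lowest, with 1 point per control library (circles) and CsCl library (triangles); name colours give the protein group. The circles and triangles of most genes overlap, and AKT6 shows the widest scatter; AKT5, with counts in 2 libraries only, is not drawn.

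Among the KUP transporters, 0 of 12 passed the test, 10 of 12 fold changes were below 0 under TMM scaling (8 when scaled by total counts alone) and the median log2 fold change was -0.05. KUP5 (AT4G33530), a potassium transporter, had the smallest p of all 32 genes. Its level was 86.0, 93.8 and 92.7 CPM in the control libraries and 83.6, 78.2 and 70.1 CPM with CsCl. All 3 CsCl libraries lay below all 3 controls, the nearest at 83.6 against 86.0 CPM. The log2 fold change was -0.23 ± 0.069 (SE, n = 3 per group; edgeR adjusted p = 0.114), and the adjusted p ran from 0.0386 to 0.374 over the alternatives. It passed the threshold when no filter on low counts was used (edgeR adjusted p = 0.0386), while DESeq2 gave an adjusted p of 0.0669.

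KUP12 (AT1G60160), by sequence another member of the family, was measured at 21.4, 21.7 and 23.7 CPM in controls and 25.3, 28.3 and 25.9 CPM with CsCl. The 2 groups did not overlap, in the opposite direction to KUP5. The log2 fold change was 0.25 ± 0.076 (edgeR adjusted p = 0.122), with a 95% interval of 0.09 to 0.42, and over the alternatives the adjusted p ran from 0.0706 to 0.433. As a share of the summed KUP level per length, KUP5 held 13.6 ± 0.572% in controls and 12.1 ± 0.800% with CsCl (SD, n = 3), and KUP12 held 3.66 ± 0.225% and 4.57 ± 0.306%.

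KUP9 (AT4G19960), the member that carries cesium in bacteria, was among the less abundant KUP genes at 3.93 CPM per kb. It stood at 14.4, 12.6 and 11.5 CPM in controls and 13.2, 12.5 and 12.3 CPM with CsCl. The CsCl libraries lay within the range of the controls. Its log2 fold change was -0.02 ± 0.099 (edgeR adjusted p = 0.943), and the 95% interval of its fold change ran from 0.850 to 1.14.

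The remaining KUP genes had log2 fold changes from -0.12 for KUP6 (AT1G70300), which acts in osmotic adjustment, to 0.00 for KUP1 (AT2G30070) and KUP11 (AT2G35060). Mean levels in the family ran from 3.93 CPM per kb for KUP9 to 32.2 CPM per kb for KUP8. KUP2 (AT2G40540) and KUP3 (AT3G02050), of which KUP2 is known for cell expansion, were also lower in all 3 CsCl libraries, but by little. KUP2 had a mean of 78.4 ± 1.44 CPM in controls and 76.1 ± 0.462 CPM with CsCl (SD, n = 3; edgeR adjusted p = 0.777). KUP3 had 49.7 ± 0.403 and 47.7 ± 1.13 CPM (edgeR adjusted p = 0.708). KUP4 (AT4G23640), required for root hair tip growth, had a log2 fold change of -0.08 ± 0.061, and KUP7 (AT5G09400), which acts in potassium uptake by roots, of -0.06 ± 0.066. KUP8 (AT5G14880), KUP10 (AT1G31120) and KUP11 had log2 fold changes of -0.04, -0.08 and 0.00. Summed over the 12 genes, the level was 637, 649 and 635 CPM in controls and 625, 612 and 597 CPM with CsCl, a ratio of 0.955 between group means. The groups did not overlap with TMM, RLE or upper-quartile factors and did overlap when scaled by total counts alone (ratio 0.981). The mean of the sum was 640 CPM in controls and 612 CPM with CsCl. Within it, KUP5 alone had means of 90.9 and 77.3 CPM, and KUP12, in the opposite direction, 22.2 and 26.5 CPM.

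Of the 6 Shaker channels, 5 were tested and 0 passed. AKT2 (AT4G22200), a weakly rectifying channel of the phloem, was the most abundant at 17.4 CPM per kb. It had 57.8, 52.6 and 51.5 CPM in controls and 59.2, 59.5 and 62.8 CPM with CsCl. All 3 CsCl libraries were above the controls, with a gap of 57.8 to 59.2 CPM at the nearest. The log2 fold change was 0.17 ± 0.063 (edgeR adjusted p = 0.234; 0.106 to 0.556 over the alternatives). Phloem markers measured beside it had 0 of 6 past the test, a median log2 fold change of -0.02 and summed levels of 447 to 492 CPM in controls and 456 to 486 CPM with CsCl; the part of phloem cell number in the AKT2 values was not tested.

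KAT1 (AT5G46240) and KAT2 (AT4G18290), inward channels of guard cells, had log2 fold changes of -0.06 ± 0.068 and 0.15 ± 0.15, and GORK (AT5G37500), the outward channel of guard cells and root hairs, of -0.05 ± 0.091. Their largest distance from 0 was that of KAT2, whose control libraries spread from 6.46 to 9.99 CPM and overlapped those with CsCl, from 8.27 to 10.4 CPM. AKT5 (AT4G32500) and AKT6 (AT2G25600), the latter also called SPIK, are known as pollen channels. Counts of AKT6 were 2, 24 and 8 in controls and 12, 10 and 16 with CsCl, too few to bound a change (95% interval of the log2 fold change -1.35 to 1.33). Counts of AKT5 were 2, 0 and 0 in controls and 0, 4 and 0 with CsCl. A count of 0 allows up to 3 counts in a library, counting error only, if each count is a separate event. Most low counts were even, so this limit may be too low. Of the 4 pollen markers listed, VGD1 and PPME1 were near 0, with 0 to 2 and 0 to 5 counts per library. The other 2 were detected, ACA9 with 309 to 393 and TUA1 with 874 to 1323 counts per library, and 0 of these 2 passed the test. The summed level of the 4 was 38.7 to 45.9 CPM in controls and 37.5 to 41.3 CPM with CsCl.

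ZIFL2 (AT3G43790), the facilitator tied to cesium export, showed the highest fold change of the set at a low level. It had 3.29, 3.07 and 2.70 CPM in controls and 4.26, 3.49 and 3.58 CPM with CsCl, from 92 to 162 counts per library. All CsCl libraries lay above all controls, but the log2 fold change of 0.32 ± 0.17 was not past the test (edgeR adjusted p = 0.420; 0.357 to 0.670 over the alternatives). Its 95% interval, from -0.04 to 0.68, includes 0. HKT1 (AT4G10310), which retrieves sodium from the xylem, had a log2 fold change of 0.06 ± 0.11.

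Of the TPK channels, 0 of 2 passed. TPK3 (AT4G18160) had 11.1, 14.8 and 13.7 CPM in controls and 12.1, 12.3 and 11.0 CPM with CsCl. The groups overlapped, and the log2 difference was -0.17 ± 0.11 (adjusted p = 0.543 by edgeR).

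The KEA antiporters of the set had log2 fold changes from -0.03 to 0.00. KEA1 (AT1G01790) was measured at 223, 215 and 225 CPM in controls and 223, 232 and 201 CPM with CsCl (log2 fold change -0.01 ± 0.063). KEA3 (AT4G04850) had 110, 105 and 117 CPM in controls and 104, 111 and 109 CPM with CsCl (log2 fold change -0.03 ± 0.060). In both genes the groups overlapped. KEA2 (AT4G00630), the other envelope antiporter, had a log2 fold change of 0.00. The 95% intervals of these 3 KEA genes lay between -0.16 and 0.13. The signs of these small values turned with the scaling: all 3 were above 0 when libraries were scaled by total counts alone. KEA1 and KEA2 share 96 of 100 bases in the printed window, and their longest identical run was 53 bases. Their separate levels may be affected by this, which was not tested.

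Of the NHX group, 0 of 5 passed. NHX1 (AT5G27150) had 109, 105 and 109 CPM in controls and 106, 103 and 103 CPM with CsCl, and its groups overlapped (log2 fold change -0.05 ± 0.054). NHX6 (AT1G79610), an endosomal antiporter, had 16.1, 15.0 and 15.8 CPM in controls and 16.2, 17.8 and 16.7 CPM with CsCl, so the CsCl libraries were all higher, the nearest by 16.2 against 16.1 CPM (log2 fold change 0.11 ± 0.081; edgeR adjusted p = 0.587). NHX5 (AT1G54370), its endosomal partner, and SOS1 (AT2G01980) had log2 fold changes of 0.06 ± 0.070 and 0.04 ± 0.070. NHX2 (AT3G05030), the other vacuolar antiporter, varied most within a group among the well-counted genes: control replicate 1 held 16.4 CPM and the other controls 10.2 and 9.19 CPM, while the CsCl libraries held 11.7 to 12.4 CPM. Of its exon bases, 8.96% overlap the long non-coding RNA gene AT3G01555 on the opposite strand, and reads of the pair cannot be told apart without the strand setting. The same holds for 9.28% of the exon bases of NHX5.

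CNGC1 (AT5G53130) stood at 46.4, 44.1 and 47.1 CPM in controls and 51.1, 48.8 and 43.3 CPM with CsCl. CsCl libraries lay on both sides of the controls, and the log2 fold change was 0.06 ± 0.070 (edgeR adjusted p = 0.773), with a 95% interval of -0.09 to 0.21. CNGC20 (AT3G17700) had 11.0, 11.7 and 11.3 CPM in controls and 10.4, 10.8 and 9.54 CPM with CsCl, all lower, with a log2 difference of -0.15 ± 0.095 (adjusted p = 0.520 by edgeR). CNGC19 (AT3G17690), which lies next to CNGC20 with no gene between them, had 1.22, 1.32 and 1.29 CPM in controls and 1.23, 1.55 and 1.02 CPM with CsCl. Its CsCl libraries lay on both sides of the controls (log2 fold change -0.02 ± 0.27). Both are known from calcium signalling in defence, and the window printed for them applies to their counts.

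**Figure D3:**
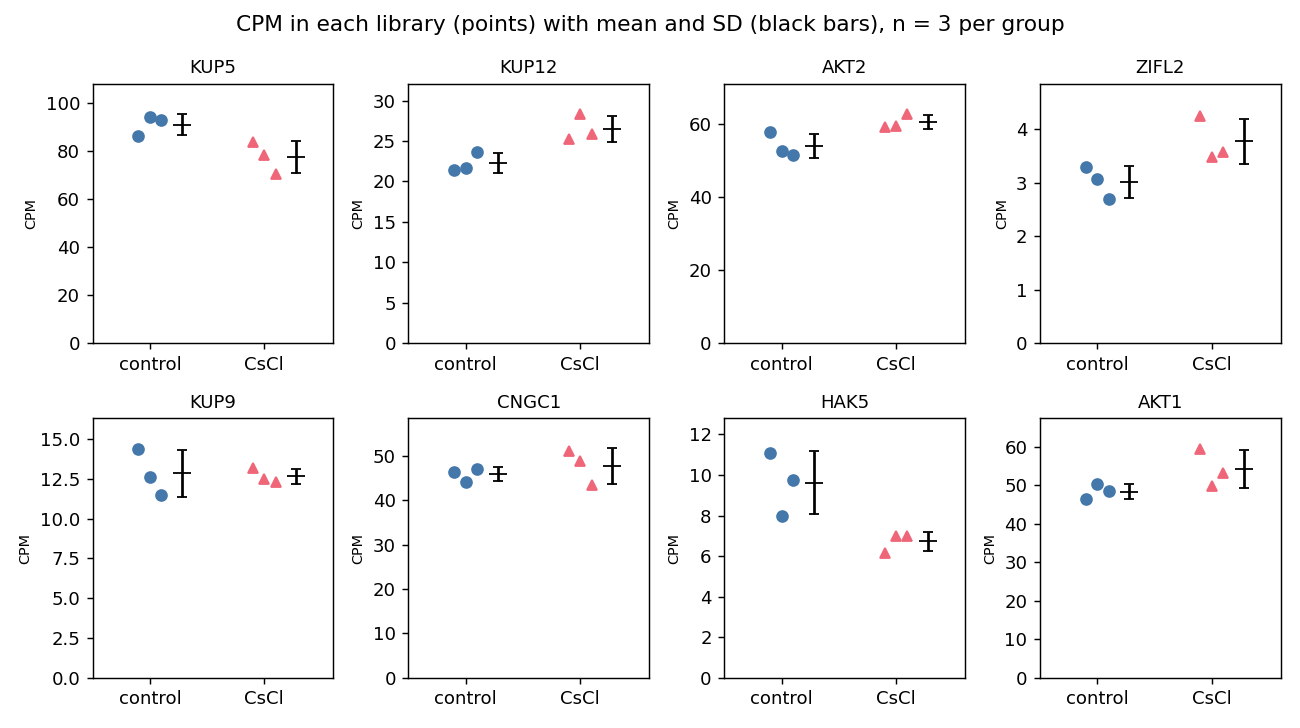
CPM in each library (vertical axis, from 0) for 6 of the genes and for the uptake genes HAK5 and AKT1, with group mean and SD beside the points (n = 3 per group). KUP5 and HAK5 lie lower and KUP12, AKT2 and ZIFL2 higher in all CsCl libraries, none past the test, while KUP9, CNGC1 and AKT1 overlap.

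Closely related genes differed widely in level. Of 8 pairs with at least 75% identical residues, AKT5 and AKT6 were left out for their low counts. In the other 7, NHX1 stood 7.91 to 14.0 times above NHX2 per length over the 6 libraries, CNGC20 6.96 to 9.37 times above CNGC19, and KAT1 3.22 to 4.94 times above KAT2. KEA1 stood 2.97 to 3.68 times above KEA2, and NHX5 2.02 to 2.33 times above NHX6. The ratio of KUP11 to KUP10, the most alike pair at 90.9% identity, was 1.45 to 1.57 in controls and 1.40 to 1.87 with CsCl. For KUP5 over KUP7 it was 2.32 to 2.75 in controls and 2.07 to 2.35 with CsCl. In each of these 7 pairs the ranges of the control and CsCl libraries overlapped.

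Of 45 further genes listed for context, 40 were tested and none passed the edgeR test, with 8 of the 40 at an unadjusted p under 0.05, against 14.4% of all tested genes; DESeq2 called 1 and limma-voom 0. In root potassium uptake and its regulators the count was 0 of 8. HAK5, the high-affinity transporter, had 11.1, 8.00 and 9.75 CPM in controls and 6.17, 6.99 and 7.0 CPM with CsCl, lower in all 3 (log2 fold change -0.52 ± 0.13, edgeR adjusted p = 0.0582; 0.0139 to 0.174 over the alternatives). It passed with no filter, with DESeq2, with robust edgeR and without control replicate 2. AKT1, the main root uptake channel, had 46.3, 50.2 and 48.4 CPM in controls and 59.5, 49.8 and 53.3 CPM with CsCl. The groups overlapped, and the log2 difference was 0.16 ± 0.071 (adjusted p = 0.308 by edgeR). Of 24 tested other members of the same families 0 passed, and 10 of their fold changes were below 0. The smallest adjusted p among the 24 was that of CNGC17, higher in all CsCl libraries (log2 fold change 0.27, edgeR adjusted p = 0.0901). KEA4, KEA5 and KEA6 had log2 fold changes of 0.16, 0.02 and 0.03. Likewise 0 of 5 kinases, phosphatases and calcium sensors passed, and 0 of 3 further genes reported in cesium accumulation, ABCG33, ABCG37 and SEC22. The medians of these 4 lists were 0.05, 0.02, 0.02 and 0.04 on the log2 scale.

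Some root markers were lower with CsCl. Of 13 tested, 4 were lower and 0 higher (edgeR adjusted p from 0.00537 to 0.0468; 1.32% of all tested genes were lower), with a median log2 fold change of -0.23. Among them were CASP1 and CASP2, which build the Casparian strip, and the root beta-glucosidase gene PYK10. Of the 13 fold changes 10 were below 0. SHR (log2 fold change 0.20), PLT1 (0.33) and PLT2 (0.16) were above 0, none past the test. With the replicate block or without CsCl replicate 2 the count of markers past the test was 1. It was 2 without control replicate 2, control replicate 3 or CsCl replicate 3 and when scaled by total counts alone. The summed level of the 13 markers was 5905 to 6234 CPM in controls and 4544 to 5079 CPM with CsCl, of which PYK10 made up 94.0 to 95.3%, and none was at 0. Root hair markers had 2 of 8 lower, PRP1 and PRP3, with summed levels of 323 to 330 and 245 to 295 CPM; the count was 1 without any 1 of the control libraries, and 0 without CsCl replicate 2 or 3 and when scaled by total counts alone. In guard cell and stomatal lineage markers 0 of 8 passed (49.4 to 55.8 against 51.9 to 57.9 CPM summed), and in shoot photosynthesis markers 0 of 4. The shoot markers summed to 36460 to 41387 CPM in controls and 34200 to 36455 CPM with CsCl under TMM scaling (ratio of means 0.919). Every CsCl library lay lower, by 36455 against 36460 CPM at the nearest. The groups were also apart with RLE factors (ratio 0.917) and total counts alone (ratio 0.945), and overlapped with upper-quartile factors (ratio 0.929). All 4 fold changes were below 0 with TMM and 3 with total counts alone, and the median log2 fold change was -0.11 and -0.07. These scalings of the marker sums were added after seeing the data. The part of root or shoot tissue in the KUP5 and HAK5 values was not tested.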

How the data were processed

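Per the labels' protocols, the RNA-seq libraries were made with a kit for stranded mRNA. The deposited values are raw counts per gene, 1 file per library; FastQC, STAR, featureCounts, edgeR and the build TAIR10 are named per the submitters' processing notes. Not given in the sources used here are versions, the annotation release, the strand setting and how reads with several matches were handled. Of counts from 1 to 50, 65.5 to 73.4% per library were even, so counts were also tested halved.

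Counts of 32075069 to 44108369 per library were fitted with edgeR 4.0.16 (R 4.3.3): filterByExpr, TMM factors (0.961 to 1.03), a quasi-likelihood test of CsCl over control with 3 libraries per group, and Benjamini-Hochberg adjustment over 21005 genes at 0.05. The fit was tested on simulated data with 50 genes changed at each of 4 fold sizes. It recovered 15 of 50 at 1.2-fold, 39 at 1.5-fold, 44 at 2-fold and 50 at 4-fold. Replicates of a group differed beyond sampling noise (chi-square per gene 6.42 to 13.0), so none was merged. Alternatives were DESeq2 1.42.0, limma-voom (limma 3.58.1), robust edgeR, other scalings and filters, a replicate block, organelle genes left out and each library left out. Levels per length used exon lengths of RefSeq TAIR10.1, matched by locus tag for all 33 genes, and sequences came from the same assembly; no coordinates are given, since the counts used TAIR10. Shared stretches were searched with BLAST 2.17.0 and protein identity computed with Biopython 1.88.

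The genes and lists were chosen with earlier results of these data known. Values in every library are given for genes at an unadjusted p under 0.05 and the 3 highest and 3 lowest tested genes per length. They are also given for the smallest p in each protein group among the genes reported, KUP9, CNGC1, ZIFL2, HAK5 and AKT1. In marker lists, genes past the test are named. The values of 1 gene of the set and of 1 root marker are not reported here, though both enter the fits and counts.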

Additional observations from a re-analysis of the deposited data

How the results depend on the processing

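No gene of the set was higher past the test under any alternative run, and 1 was lower only with no filter on low counts (KUP5, edgeR adjusted p = 0.0386). Of the context genes, 1 (HAK5) was lower with no filter, with DESeq2 and with robust edgeR, and leaving out each library gave 0 to 1. Over all genes, 177 higher and 277 lower became 301 and 518 with no filter, 80 and 106 at an adjusted p under 0.01, and 198 and 180 with total counts only; leaving out each library gave 89 to 231 higher and 90 to 330 lower. The cause of these shifts was not tested.

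Signs turned for genes near 0. KUP1 rounded to 0.00 but changed sign under RLE factors, no filter, a filter of 1 CPM, DESeq2, limma-voom, the replicate block, organelle genes left out and halved counts. With total counts only, KUP9 was 0.01, KUP11 0.04, AKT6 0.03, KEA1 0.02, KEA2 0.03, KEA3 0.01 and CNGC19 0.02. With upper-quartile factors, KUP11 was 0.02, AKT6 0.01, KEA1 0.00 and KEA2 0.01. With limma-voom, KUP11 was 0.00 and AKT6 0.53.

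Leaving out each library gave log2 fold changes of -0.04 to 0.03 for KUP1, -0.10 to 0.06 for KUP9, -0.07 to 0.06 for KUP11, -0.11 to 0.02 for GORK, -0.01 to 0.28 for KAT2, -0.50 to 1.17 for AKT6 and -0.07 to 0.13 for HKT1. They were -0.06 to 0.04 for KEA1, -0.05 to 0.03 for KEA2, -0.08 to 0.00 for KEA3, -0.13 to 0.32 for NHX2, -0.01 to 0.05 for SOS1 and -0.19 to 0.12 for CNGC19.

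Deviations of control and CsCl libraries with the same replicate number had correlations of -0.08, 0.04 and -0.01. Those of libraries with different numbers ran from -0.13 to 0.13. Whether the numbers pair the samples was not tested beyond these values. With the replicate block, 146 genes were higher and 210 lower, 0 of the set among them; KUP11 was 0.00 and AKT6 0.19. Depth limits AKT5, AKT6, CNGC19 and ZIFL2.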
